A study of Ovis aries and Bos taurus with 15 samples.

Results

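Integrin subunit genes were followed on Affymetrix bovine arrays through every probe set whose platform annotation gave exactly 1 gene symbol, that symbol being ITGA2, ITGA3, ITGA5, ITGA6, ITGAV, ITGB1, ITGB3, ITGB4 or ITGB5. The rule found 16 of 24016 probe sets, for 8 of the 9 genes. ITGA6 had no such probe set and was not analysed here. Each of 15 samples was hybridised to 1 array, in 3 groups of 5. The first group was ovine cells labelled PAEC that had been given GW9662, an irreversible antagonist of the nuclear receptor PPARγ, at 5 µM for 24 h. The second was bovine cells labelled BAEC, titled as controls, with no treatment given in the labels. The third was ovine PAEC given the vehicle, DMSO. All were grown in DMEM with serum, and the labels name no animal, clone or passage. The study's title speaks of pulmonary endothelial cells and of inhibition of PPARγ.

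Integrins are cell surface receptors made of 1 α and 1 β subunit. Their outer parts bind extracellular matrix, and the short tails of the β subunits recruit talin and kindlin, which link them to actin and to kinases such as focal adhesion kinase. ITGB1 pairs with many α subunits, among them ITGA5 in the classical fibronectin receptor, ITGA2 in a collagen receptor and ITGA3 in a laminin receptor. ITGAV pairs with ITGB3 or ITGB5 in receptors for vitronectin and other ligands with an RGD motif, which in endothelium are known for their part in angiogenesis. ITGB4 pairs with ITGA6 in a laminin receptor best known from epithelial hemidesmosomes.

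The deposited values are log2 expression values, on which 1 unit is a factor of 2. They ran from 0.899 to 14.07 over all probe sets, and 45.85% of the probe sets had a mean under 3 over the 15 arrays. Values under 3 are called the floor here, because a level there cannot be told from no expression. Arrays of the same group correlated at 0.994 or more. The endothelial markers PECAM1 (11.48, 11.68 and 11.63 in GW9662, bovine and vehicle arrays) and CDH5 (11.35, 11.64 and 11.47) were bright in all groups, whereas VWF was at the floor in all of them (2.29, 2.28 and 2.31). Of 15 endothelial markers 3 had a mean under 3 in GW9662, 1 in bovine and 4 in vehicle arrays. KDR was at 3.79, 3.08 and 2.64, FLT1 at 2.84, 3.21 and 2.90, CLDN5 at 2.43, 5.03 and 2.45 and PLVAP at 3.18, 6.57 and 3.34. Of 11 leukocyte markers 10 were at the floor, PTPRC and ITGB2 among them, while CD14 was at 6.72, 2.27 and 6.69. Of 7 smooth muscle markers 5 were at the floor, ACTA2 among them, while TAGLN was at 7.16, 9.001 and 7.18 and SMTN at 4.29, 5.19 and 3.91. Of 8 fibroblast markers 6 were at the floor, while COL1A2 (10.36, 11.24 and 10.33) and COL3A1 (10.55, 10.41 and 10.44) were bright. Of 9 epithelial markers 8 were at the floor, KRT5 being near 5, and all 4 platelet and erythroid markers were. Control transcripts gave a 3′ minus 5′ signal difference, a sign of RNA or labelling quality, of 0.956 ± 0.074 in GW9662, 0.881 ± 0.043 in bovine and 1.18 ± 0.085 in vehicle arrays (SD, n = 5 each), and the vehicle arrays overlapped neither other group. Nothing in the labels says that arrays of a group came from separate cultures, so p-values measure the spread between these samples, which may be technical. Adjusted p-values are from limma with Benjamini-Hochberg adjustment over all 24016 probe sets, with a threshold of 0.05. Means are given with their SD over 5 arrays and differences with their standard error.

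GW9662 changed no integrin subunit gene past the threshold. Of the 16 probe sets 0 passed, where 0.183% of all probe sets did, and 1 of 16 (ITGB5, lower) had an unadjusted p under 0.05, against 21.4% of all probe sets. Of the 9 integrin probe sets above the floor 0 passed, where 0.331% of such probe sets did, and 4 were higher and 5 lower in the mean, with differences no larger than 0.41. Their median difference was -0.06, where that of all probe sets above the floor was 0.03. The groups did not overlap in 1 of 16 integrin probe sets, a floor probe set of ITGB3, against 14.6% of all.

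The bovine control and ovine vehicle arrays differed in several subunits, in both directions. ITGA5, ITGA3 and ITGA2 were higher in bovine cells by 0.90, 0.65 and 1.11. ITGB1 was lower by 0.18, and a dimmer probe set each of ITGAV and ITGB5 was lower by 0.57 and 1.27. The brighter probe sets of ITGB3, ITGAV and ITGB5 did not pass, and the other calls were of floor probe sets of ITGA5 and ITGB3. In all, 3 of 16 probe sets were higher and 5 lower, where 15.6% and 29.6% of all probe sets were (45.2% in either direction). Above the floor it was 3 higher and 3 lower of 9, against 27.7% and 24.4%, or 52.1% in either direction. Of the 7 at the floor 2 were lower, where 35.8% of such probe sets were lower and 37.1% passed in either direction. The share of integrin probe sets that passed was thus near the background. The groups did not overlap in 10 of 16, where they did not in 53% of all probe sets. Against the GW9662 arrays in place of the vehicle arrays, 4 of 16 passed, where 29.4% of all probe sets did. Species, the source of the cells and the match of sheep RNA to bovine probes cannot be told apart in this comparison. Both comparisons use the same 5 vehicle arrays.

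**Figure D1:**
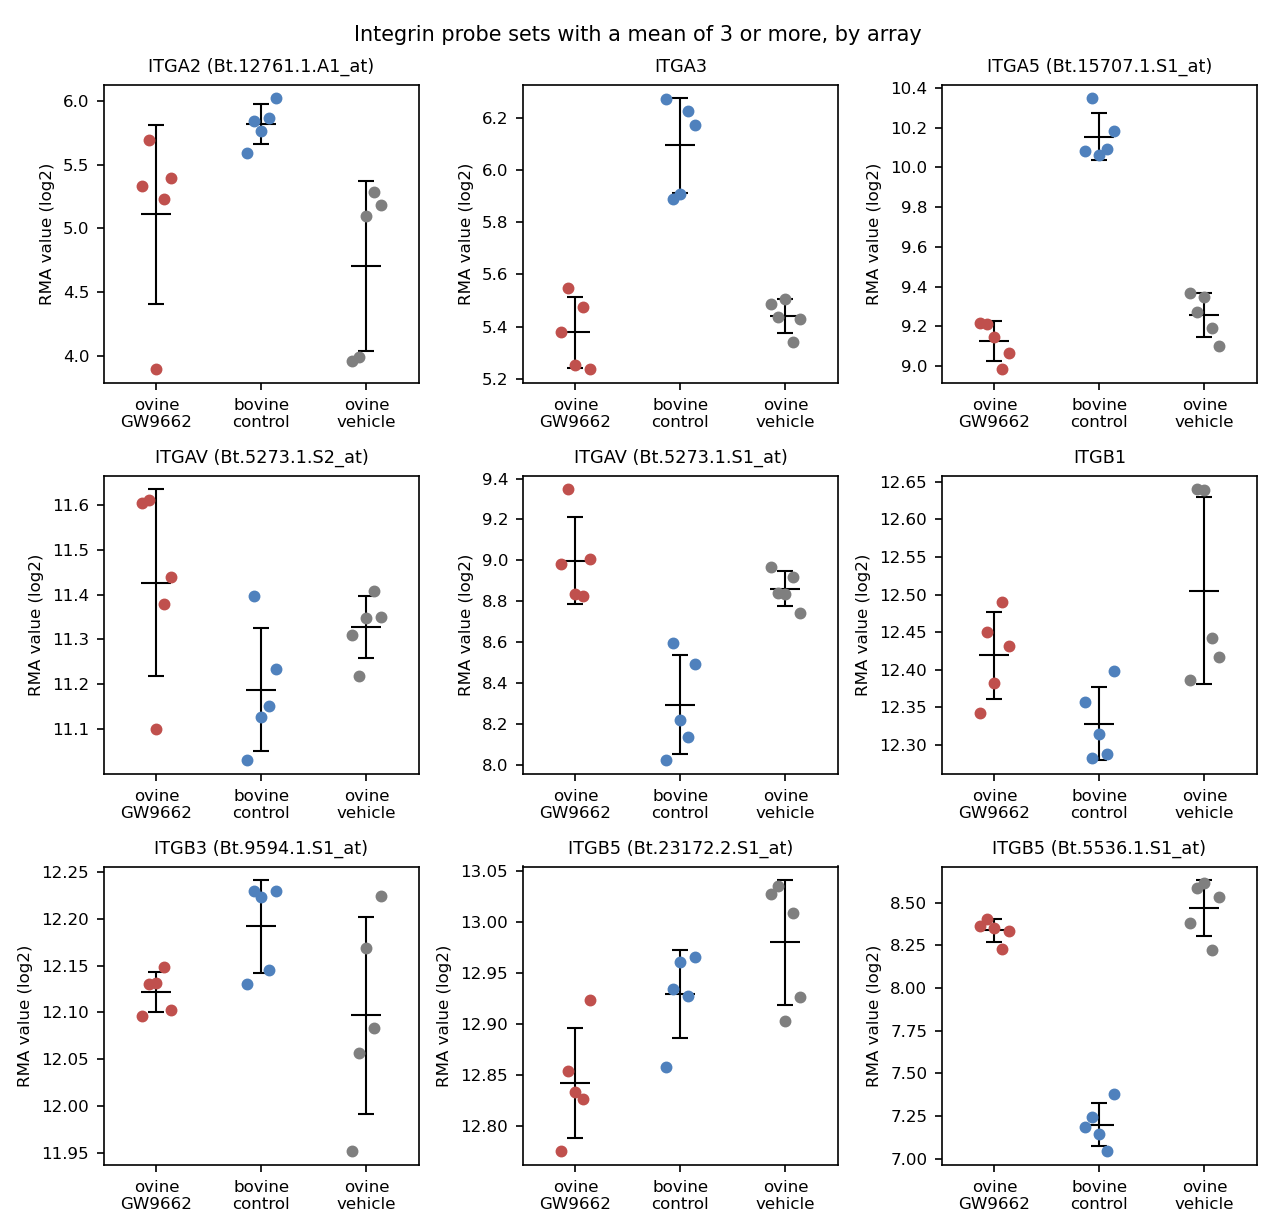
Log2 expression level of the 9 integrin probe sets above the floor on each array, in ovine GW9662, bovine control and ovine vehicle groups (5 points each, with bars at the mean ± SD and a separate vertical scale for each panel). The bovine points of ITGA5 sit between 10.06 and 10.35, above all ovine points, while the ITGA2 points of both ovine groups spread over more than 1 unit.

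ITGA5, the α subunit of the classical fibronectin receptor, was measured by a bright probe set and by a pair at the floor. On the bright one it was at 9.22, 9.21, 9.15, 8.98 and 9.07 in the GW9662 arrays, at 10.08, 10.35, 10.06, 10.09 and 10.18 in the bovine arrays and at 9.37, 9.27, 9.35, 9.19 and 9.10 in the vehicle arrays. Every bovine array was above every ovine array, and the ovine groups overlapped. The bovine group exceeded the vehicle group by 0.90 ± 0.069, a 1.86-fold difference with a 95% interval of 1.67 to 2.08 (adjusted p = 1.12e-05). GW9662 cells differed from vehicle cells by -0.13 ± 0.064, with an interval from -0.28 to 0.01 (adjusted p = 0.251). In order of level the bovine cells came first, then vehicle and GW9662, and the last pair did not differ beyond its spread. The pair of floor probe sets averaged 2.63 and 2.25 in GW9662, 2.63 and 2.24 in bovine and 2.64 and 2.26 in vehicle arrays. The dimmest of them passed the threshold between bovine and vehicle arrays with a difference of -0.03 (adjusted p = 0.0417), which is opposite in sign to the bright probe set and among values that carry no level. That call was lost on leaving out any of 8 of the 10 arrays, and under centring on the array median the sign turned (0.01).

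ITGB1, the shared β subunit of the fibronectin, collagen and laminin receptors above, was at 12.34, 12.45, 12.38, 12.49 and 12.43 in GW9662 arrays, at 12.36, 12.28, 12.31, 12.29 and 12.40 in bovine arrays and at 12.39, 12.64, 12.64, 12.44 and 12.42 in vehicle arrays. Vehicle replicates 2 and 3 stood above the other arrays, and the 3 groups overlapped. The bovine level was lower than the vehicle level by 0.18 ± 0.057 (adjusted p = 0.0346), the smallest difference among the called integrin probe sets above the floor. The call was lost when bovine replicate 1, 2, 3 or 4, or vehicle replicate 2 or 3, was left out (differences of -0.14 to -0.21 over the 10 leave-outs, highest adjusted p = 0.0729). It was also lost under centring on the array median (adjusted p = 0.116) and after a second quantile normalisation (adjusted p = 0.0514). Neither the replicate block (adjusted p = 0.107) nor the 3′ minus 5′ covariate (adjusted p = 0.174) kept it. GW9662 cells differed from vehicle cells by -0.09 ± 0.059 (adjusted p = 0.347). Vehicle stood highest in the mean, then GW9662, then bovine, and neither neighbouring pair in that order passed the threshold.

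ITGA2, the α subunit of a collagen receptor, varied most among the integrin probe sets, with an SD of 0.71 over the 15 arrays. Its brighter probe set was at 5.33, 5.70, 3.89, 5.23 and 5.39 in GW9662 arrays, at 5.59, 5.84, 5.77, 5.87 and 6.02 in bovine arrays and at 3.96, 3.99, 5.10, 5.29 and 5.19 in vehicle arrays. The bovine arrays lay close together and above the vehicle arrays. In the ovine cells 3 arrays, GW9662 replicate 3 and vehicle replicates 1 and 2, lay near 4 and the other 7 above 5. GW9662 replicate 3 and vehicle replicate 1 had the highest 3′ minus 5′ difference of their groups (1.04 and 1.30). They also lay farthest from the rest of their groups over all probe sets (mean absolute difference of 0.092 and 0.166). Vehicle replicate 2 did neither (1.19 and 0.096). The part of array quality in the ITGA2 levels was not tested. The bovine minus vehicle difference was 1.11 ± 0.29, or 2.17-fold with an interval of 1.37 to 3.42 (adjusted p = 0.0166). GW9662 minus vehicle was 0.41 ± 0.41, with an interval of -0.53 to 1.34 that spans no change and a difference of more than 1 unit (adjusted p = 0.503). Set against GW9662 cells, bovine cells were higher in the mean by 0.71, which did not pass (adjusted p = 0.111). Bovine cells came first in order, then GW9662, then vehicle, and neither neighbouring pair passed the threshold. A second ITGA2 probe set from the same sequence record was at the floor (2.42, 2.41 and 2.51 in GW9662, bovine and vehicle arrays). Its bovine minus vehicle difference was -0.10 ± 0.066 (adjusted p = 0.241), opposite in sign to the brighter one and among values that carry no level.

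ITGA3, the α subunit of a laminin receptor, had 1 probe set. It was at 5.38, 5.55, 5.25, 5.48 and 5.24 in GW9662 arrays, at 6.27, 5.89, 5.91, 6.23 and 6.17 in bovine arrays and at 5.49, 5.44, 5.50, 5.34 and 5.43 in vehicle arrays. All bovine arrays lay above all ovine arrays. The bovine group was 0.65 ± 0.082 above the vehicle group, or 1.57-fold with an interval of 1.38 to 1.79 (adjusted p = 0.000271). GW9662 minus vehicle was -0.06 ± 0.064, within -0.21 to 0.08 (adjusted p = 0.516), so the ovine groups did not differ beyond their spread.

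With the 3′ minus 5′ difference of each array as a covariate, the bovine against vehicle calls of ITGA5 (bright) and ITGB5 (dimmer) were the only 2 of the 8 integrin calls that passed. ITGA3 kept a difference of 0.62 (adjusted p = 0.199) and the dimmer ITGAV probe set one of -0.67 (adjusted p = 0.314), while ITGA2 turned to -0.38 (adjusted p = 0.935). That covariate did not overlap between bovine (0.843 to 0.942) and vehicle arrays (1.07 to 1.30), so it cannot be told apart from the groups.

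ITGAV, the α subunit of the RGD-binding receptors, had a pair of bright probe sets. The brighter was at 11.60, 11.61, 11.10, 11.38 and 11.44 in GW9662 arrays, at 11.03, 11.40, 11.13, 11.15 and 11.23 in bovine arrays and at 11.31, 11.22, 11.35, 11.41 and 11.35 in vehicle arrays, with all groups overlapping. The other was at 8.98, 9.35, 8.83, 8.83 and 9.004 in GW9662 arrays, at 8.02, 8.60, 8.22, 8.14 and 8.49 in bovine arrays and at 8.97, 8.84, 8.84, 8.92 and 8.74 in vehicle arrays. Only on that second probe set were all bovine arrays below all vehicle arrays. Its bovine minus vehicle difference was -0.57 ± 0.11, with an interval of -0.82 to -0.32 (adjusted p = 0.00378). The brighter probe set gave -0.14 ± 0.065 (adjusted p = 0.104). GW9662 minus vehicle was 0.10 ± 0.094 (adjusted p = 0.471) on the brighter and 0.14 ± 0.097 (adjusted p = 0.359) on the dimmer. The order of group means was GW9662, vehicle, bovine on both, and only the dimmer probe set separated neighbours in it, vehicle from bovine.

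ITGB5, a β partner of ITGAV, showed the same kind of disagreement. Its brighter probe set was at 12.77, 12.85, 12.83, 12.83 and 12.92 in GW9662 arrays, at 12.86, 12.93, 12.96, 12.93 and 12.97 in bovine arrays and at 13.03, 13.03, 12.90, 13.01 and 12.93 in vehicle arrays. The dimmer one was at 8.36, 8.41, 8.35, 8.23 and 8.34 in GW9662 arrays, at 7.19, 7.24, 7.15, 7.04 and 7.38 in bovine arrays and at 8.38, 8.58, 8.62, 8.22 and 8.54 in vehicle arrays. On the dimmer one every bovine array lay below every ovine array, and the ovine groups overlapped. The bovine minus vehicle difference was -1.27 ± 0.087 there, a 2.41-fold lower level in bovine cells (adjusted p = 5.39e-06), but -0.05 ± 0.033 on the brighter one (adjusted p = 0.211). Within arrays, the dimmer minus brighter gap moved by -1.22 for ITGB5 and by -0.43 for ITGAV between bovine and vehicle arrays, without overlap of the groups, while between GW9662 and vehicle arrays it moved by 0.01 and 0.04. Against vehicle the probe sets of each gene thus differed in the size of the difference, with all 4 means lower in bovine cells. Against GW9662 cells the brighter ITGB5 probe set was at 0.09 in the other direction (adjusted p = 0.0577) and the dimmer one at -1.14. GW9662 minus vehicle was -0.14 ± 0.035 on the brighter ITGB5 probe set, with an interval of -0.22 to -0.06, and its adjusted p of 0.190 was the lowest among the 16 integrin probe sets. The dimmer one gave -0.13 ± 0.076 (adjusted p = 0.290). Group means ran from vehicle over bovine to GW9662 on the brighter probe set, with no neighbours told apart past the threshold, and from vehicle over GW9662 to bovine on the dimmer one, where the step from GW9662 to bovine passed.

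ITGB3, the other β partner of ITGAV and in platelets that of ITGA2B, was bright and nearly level on 1 of its 4 probe sets. It was at 12.10, 12.13, 12.13, 12.15 and 12.10 in GW9662 arrays, at 12.13, 12.23, 12.22, 12.15 and 12.23 in bovine arrays and at 11.95, 12.06, 12.17, 12.08 and 12.22 in vehicle arrays. The vehicle arrays spread widest and overlapped both other groups. GW9662 minus vehicle was 0.02 ± 0.046 (adjusted p = 0.718), within -0.08 to 0.13. Bovine minus vehicle was 0.09 ± 0.050 (adjusted p = 0.136). Bovine cells came first in the order of means, then GW9662, then vehicle, and no neighbours in it differed past the threshold. The other 3 ITGB3 probe sets were at the floor, and 1 of them passed between bovine and vehicle arrays with a difference of -0.03 (adjusted p = 0.0320), a call that leaving out any of 7 of the 10 arrays removed and whose sign turned under centring.

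ITGB4, the laminin-binding partner of ITGA6, was at the floor in every array. Its values were 2.31, 2.65, 2.20, 2.32 and 2.43 in GW9662 arrays, between 2.17 and 2.18 in the bovine arrays and 2.33, 2.40, 2.92, 2.61 and 2.21 in vehicle arrays. The bovine arrays lay below all vehicle arrays, but with a difference of -0.31 ± 0.12 (adjusted p = 0.0552) within the range where no level can be read. GW9662 minus vehicle was -0.11 ± 0.14 (adjusted p = 0.588).

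**Figure D2:**
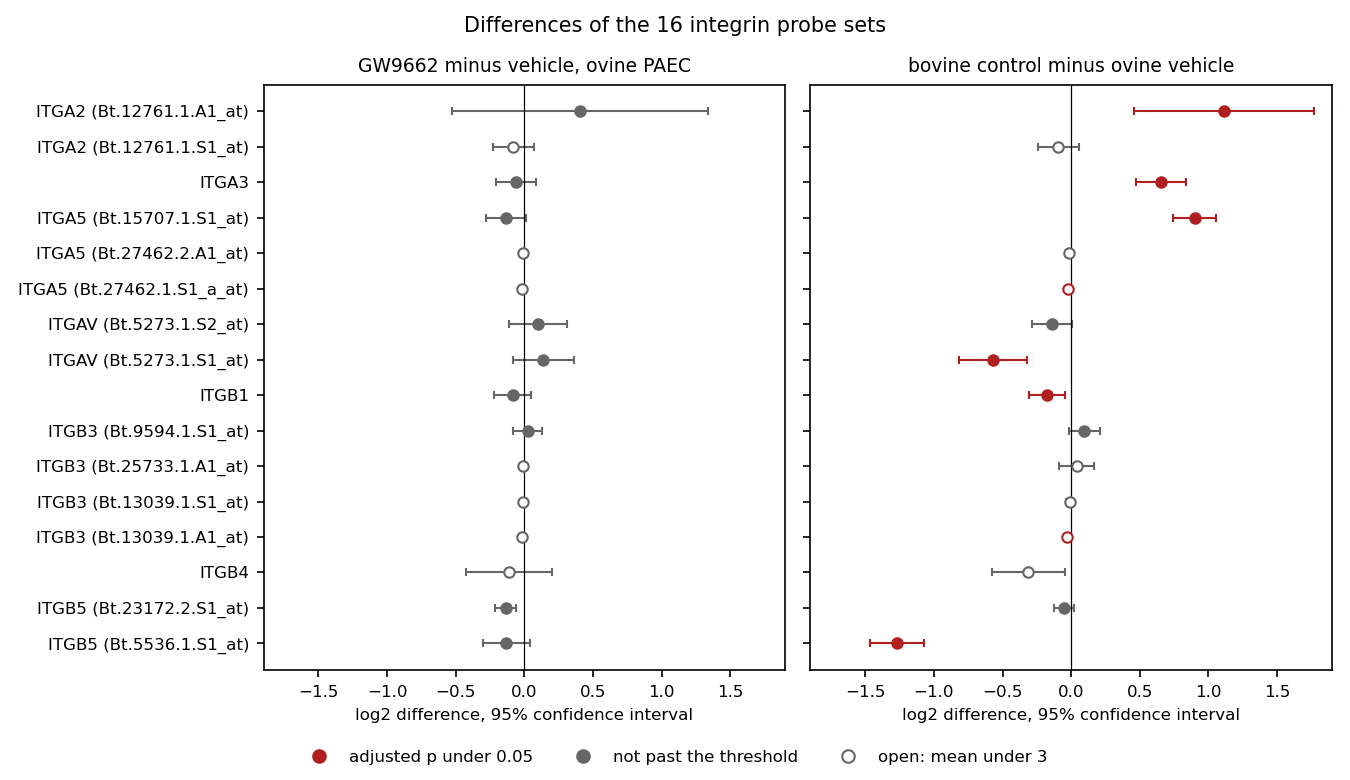
Log2 differences of the 16 integrin probe sets with 95% intervals, for GW9662 minus vehicle and for bovine control minus ovine vehicle. The intervals for GW9662 span 0 except that of the brighter ITGB5 probe set (-0.22 to -0.06), and the ITGB5 and ITGAV probe sets differ in their bovine minus vehicle values.

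The subunits were also compared as α minus β within each array, since 1 β subunit serves several receptors. Against ITGB1, the bovine minus vehicle shift was 1.29 for ITGA2, 1.07 for ITGA5 and 0.83 for ITGA3, and in these 3 pairs every bovine array lay above every vehicle array. The shift was 0.04 for ITGAV over ITGB1, -0.23 for ITGAV over ITGB3 and -0.09 for ITGAV over ITGB5, by the brighter probe sets, and there the groups overlapped. With the dimmer ITGAV probe set these shifts were -0.39 (overlapping), -0.66 and -0.52 (neither overlapping), and with the dimmer probe sets of both ITGAV and ITGB5 the shift was 0.70, with every bovine array above every vehicle array. The direction of ITGAV over ITGB5 thus depended on the probe sets. For GW9662 minus vehicle the 6 shifts by the brighter probe sets ran from -0.05 to 0.49, all with overlapping groups. Once group means were removed, the correlation across the 15 arrays was highest for ITGA2 with the brighter ITGAV probe set (0.74), ahead of the ITGAV pair (0.72), and lowest for ITGA3 with the brighter ITGB5 probe set (-0.37). These correlations share arrays and scaling and are given as descriptions.

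Of 17 other integrin subunits looked for, 11 were measured and 10 of these were at the floor. ITGAE, which on lymphocytes binds E-cadherin, was the exception at 5.68, 5.60 and 5.65 in GW9662, bovine and vehicle arrays, and did not differ past the threshold in either comparison. The floor group held ITGB2, ITGAL, ITGAM and ITGAD of leukocytes, ITGA2B of platelets, ITGA4, ITGA7, ITGA10, ITGB6 and ITGB7. Between bovine and vehicle arrays 5 of the 11 were lower, all of them at the floor, where 35.8% of floor probe sets were lower. The 5 became 1 under centring, 1 after quantile normalisation, 1 with the replicate block, 0 with the 3′ minus 5′ covariate and 3 with only the brightest probe sets tested. They became 2 without bovine replicate 1 or 4 or vehicle replicate 2, and 3 without bovine replicate 2, 3 or 5 or vehicle replicate 4. The largest such difference was that of ITGA10 at -0.23 (adjusted p = 0.00519), all of it within the floor. GW9662 changed 0 of the 11 by limma, and 2 had an unadjusted p under 0.05, where 21.4% of all probe sets did.

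Genes that work with integrins were taken from 5 lists, each gene by its brightest probe set. Under GW9662, where 0.218% of the 9155 named genes passed, 0 of 35 matrix ligands, 0 of 21 talin and kindlin adaptors, 0 of 28 kinases and signalling proteins and 0 of 25 regulators and membrane partners passed. At an unadjusted p under 0.05 there were 2 higher and 5 lower ligands, 0 higher and 7 lower adaptors, 3 higher and 1 lower kinases, and 4 higher and 3 lower regulators, where 21.4% of all probe sets had such a p. The median difference of the adaptors was -0.10, with 15 of 21 below 0, where the median of all named genes was -0.01. The 15 endothelial markers had a median of -0.10, with 13 below 0. The largest difference among them went the other way, that of KDR (1.15, adjusted p = 0.217), which was at the floor in vehicle arrays (2.64). The mean level of the 15 markers ran from 7.35 to 7.54 in GW9662 and from 7.40 to 7.51 in vehicle arrays. The log2 of their summed signal ran from 13.376 to 13.525 in GW9662 and from 13.534 to 13.674 in vehicle arrays, without overlap. The 3′ minus 5′ difference also separated these groups, and the part of either in the adaptor values was not tested. The gene nearest the threshold was COL3A1 among ligands (0.11, adjusted p = 0.188), CSRP1 among adaptors (-0.29, adjusted p = 0.176), PAK4 among kinases (-0.42, adjusted p = 0.217) and the syndecan SDC2 among regulators (0.40, adjusted p = 0.167).

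Among 23 genes of integrin traffic, VPS35 alone passed under GW9662. VPS35 is the core of retromer, which returns membrane proteins from endosomes. It was at 10.91, 10.90, 10.97, 10.98 and 10.86 in GW9662 arrays, against 10.74, 10.69, 10.72, 10.79 and 10.75 in vehicle arrays, without overlap, a difference of 0.19 ± 0.027 (adjusted p = 0.0455). The difference was between 0.17 and 0.23 under 19 other settings, but it passed in only 5 of these. It passed in 1 of the 10 that left out an array, the one without vehicle replicate 4.

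Between bovine and vehicle arrays the lists split in different directions, against 21.9% of named genes higher and 27.4% lower (49.2% in either direction). With the 3′ minus 5′ covariate, which did not overlap between these groups, 8 of the 35 ligands passed, where 1601 of all 24016 probe sets did. Without it 10 ligands were higher and 15 lower, 1 and 4 of these at the floor. Among the lower ones, THBS1 (-0.58) had other probe sets that passed in the opposite direction (0.75, adjusted p = 7.22e-05, and 0.60, adjusted p = 4.93e-06), and so did LAMC1 (-0.39, against 0.25, adjusted p = 0.0239). Further THBS1 probe sets passed in the same direction (-1.71, adjusted p = 1.15e-07, and -0.52, adjusted p = 0.0190). The smallest p-values of the ligands were those of FBLN5, an elastic fibre protein (3.18, adjusted p = 7.04e-10), TGFBI (3.51, adjusted p = 1.87e-08), MFGE8, an RGD protein that binds ITGAV receptors (-1.73, adjusted p = 8.15e-08), and COL4A1 of basement membranes (0.93, adjusted p = 1.01e-07). TGFBI was at the floor in vehicle arrays (6.12 in bovine against 2.61 in vehicle arrays), so the size of its expression difference cannot be read. Chosen after their values were seen, the ligands FN1 of ITGA5 and VTN of ITGAV did not pass: FN1 was at 13.58 in bovine and 13.49 in vehicle arrays (adjusted p = 0.0547), and VTN was at the floor.

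Of the 21 adaptors 11 were higher, TNS1 with a floor probe set in the opposite direction, and 5 lower, TLN2 among them at the floor. Among all named genes 21.9% were higher and 27.4% lower. The median difference of the 21 was 0.23, where that of all named genes was -0.02. The actin linker VCL was lower in bovine cells (-1.01, adjusted p = 7.06e-07), and PDLIM1 (0.50, adjusted p = 9.91e-07), PDLIM7 (1.16, adjusted p = 0.000158) and TGFB1I1, a paxillin relative (0.60, adjusted p = 0.000193), were higher. Of the 28 kinases and signalling proteins 12 were higher, PTK2 with a floor probe set in the opposite direction. Of them 5 were lower, PAK1 among these at the floor, and the median of the 28 was 0.24. LYN (3.52, adjusted p = 4.79e-08), FYN (0.77, adjusted p = 2.26e-05) and YES1 (0.93, adjusted p = 3.56e-05), all kinases of the Src family, were higher, as was the scaffold NEDD9 (0.65, adjusted p = 1.52e-05). LYN was at the floor in vehicle arrays (2.91), so the size of its expression difference cannot be read. The bovine arrays also differed in cell markers. The mean level of 15 endothelial markers ran from 8.06 to 8.15 in bovine and from 7.40 to 7.51 in vehicle arrays. Of these markers 7 were higher and 4 lower. The lower ones were VWF, at the floor, and the bright ENG (-0.29, adjusted p = 0.0103), ERG (-0.20, adjusted p = 0.000932) and MCAM (-0.13, adjusted p = 0.0420). PLVAP (3.23, near the floor in vehicle arrays at 3.34), CLDN5 (2.58, at the floor in vehicle arrays) and ROBO4 (1.67) differed most. CDH5 differed by 0.17, and PECAM1 did not pass (0.05). The smooth muscle markers TAGLN (1.83, adjusted p = 5.76e-07) and SMTN (1.27, adjusted p = 0.00103) were higher in bovine arrays, and the log2 of the summed signal of the 7 ran from 9.04 to 9.32 in bovine and from 7.43 to 7.77 in vehicle arrays. The leukocyte marker CD14 was lower (-4.42, adjusted p = 6.27e-10) and at the floor in bovine arrays (2.27). The part of these markers in the adhesion genes was not tested. With the 3′ minus 5′ covariate, which cannot be told apart from these groups, 2 adaptors and 1 kinase or signalling protein passed. Over all probe sets 1601 of 24016 passed with it.

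Of the 25 regulators and membrane partners 4 were higher and 11 lower in bovine cells, ITGBL1 among the lower at the floor. Among all named genes 21.9% were higher and 27.4% lower, or 49.2% in either direction. With the 3′ minus 5′ covariate, which cannot be told apart from these groups, 7 of the 25 passed, where 1601 of all 24016 probe sets did. DAB2, an endocytic adaptor, was higher (1.34, adjusted p = 3.31e-07) on its brightest probe set, while its floor probe set passed in the opposite direction (-0.09, adjusted p = 0.0447). SDC2 (-2.65, adjusted p = 1.13e-06) and ITFG1 (-0.61, adjusted p = 1.47e-06) were lower, and APBB1IP, which brings talin to integrins in blood cells, was higher (2.61, adjusted p = 2.05e-06). Of the 23 traffic genes 8 were higher and 4 lower, RAB25 among the lower at the floor, and 2 passed with the covariate. The traffic calls without the covariate were near the 49.2% of named genes called in either direction. After DAB2, the smallest p-values were those of VPS35 (0.29, adjusted p = 0.000112), STX6 (0.92, adjusted p = 0.000113) and RAB11B (0.45, adjusted p = 0.000154).

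**Figure D3:**
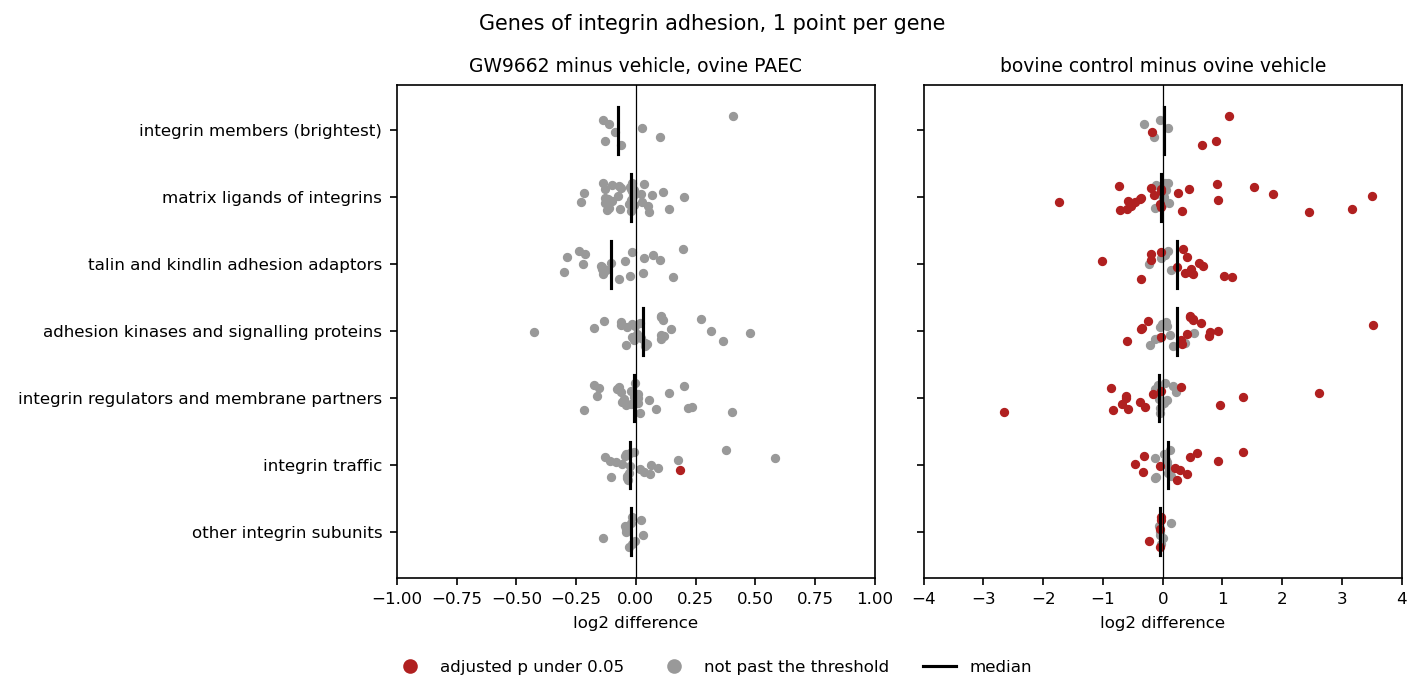
Log2 differences of the genes in each adhesion list, GW9662 minus vehicle and bovine control minus ovine vehicle, 1 point per gene by its brightest probe set, with red points past the threshold and vertical bars at the medians. Among these genes only VPS35 of the traffic list (0.19) passed under GW9662, and between bovine and vehicle arrays the differences spread to more than 3 units, with FBLN5, TGFBI and LYN farthest up.

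The named genes most like the 3 integrin genes of largest SD, each taken by its brightest probe set, were ranked by Pearson correlation over the 15 arrays. For ITGA2 these were PHF20L1 (0.93), PALS1 (0.92) and TPR (0.91), which kept 0.91, 0.88 and 0.85 once group means were removed. For ITGA5 they were EXT1 (0.99), SERPINH1 (0.99) and BGN (0.99), and for ITGA3 SULT1B1, SHISA5 and SLC17A9 (each 0.96). With group means removed the ITGA5 set fell to between 0.76 and 0.81 and the ITGA3 set to between 0.64 and 0.66. All points share the split between the bovine and ovine arrays, and the ranks are descriptions with no test.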

How the data were processed

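Total RNA from 15 samples was hybridised, 1 array each. Per the submitters' processing notes the deposited log2 values come from RMA, whose version is not given in the sources used here. RMA corrects background, quantile-normalises arrays and summarises probes. Its background step can compress dim values, and the number of arrays limits precision. Of 24128 probe sets, 112 controls were left out. In the platform annotation 13292 had 1 symbol, 86 several and 10638 none. Each comparison had its own fit over 10 arrays in limma 3.58.1 (R 4.3.3; lmFit, eBayes), first tested on simulated data. Integrin members and adhesion lists were chosen with earlier results of these data known. Named genes were all members, per list the called genes lowest in p (at most 4, or 2 uncalled ones if a list had no call), and the 3 genes most correlated with each of the 3 most variable members. The alternatives were other scalings, filters, variance models, fits, covariates and left-out arrays. Samples sharing a title number did not vary together, so no pairing was used.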

Additional observations from a re-analysis of the deposited data

Results flagged for a closer look

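In groups of 5 arrays, a single array stood apart from the rest by more than Dixon's 95% limit for the gap relative to the range in 6 of the 48 groups tested. Chance flags about 1 in 20 groups, and 5 of the 6 were on probe sets at the floor. ITGA2 on its brighter probe set was at 3.8906 in GW9662 replicate 3, where the other 4 GW9662 arrays lay between 5.23 and 5.70. That array also had the highest 3′ minus 5′ difference of its group (1.04). On its floor probe set, ITGA2 was at 2.7835 in vehicle replicate 1, where the others lay between 2.43 and 2.44. A floor probe set of ITGB3 was at 2.5431 in bovine replicate 5, where the others lay between 2.24 and 2.26. Another floor probe set of ITGB3 was at 2.2139 in GW9662 replicate 4, at 2.2001 in bovine replicate 2 and at 2.2655 in vehicle replicate 1, with gaps of hundredths of a unit.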

How the results depend on the processing

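The bovine against vehicle call of the dimmer ITGB5 probe set held in every alternative that tested it at the threshold alone, except that the fit of the brightest probe sets leaves it out; that of the bright ITGA5 probe set held in all of these, but at 1.86-fold it misses a 2-fold limit. ITGA2, ITGA3 and the dimmer ITGAV probe set held in all 10 leave-outs of an array. The 8 integrin calls became 5 with arrays centred on their median, 5 with the replicate block, 2 with the 3′ minus 5′ covariate, 4 with only the brightest probe set of each gene, 2 where a difference of at least 2-fold was asked for and 4 with the GW9662 arrays in place of the vehicle arrays. Leaving out an array gave 5 to 9, with 5 without bovine replicate 1, 3 or 4 or vehicle replicate 2, and 9 without vehicle replicate 1. Under centring the split was 3 higher and 2 lower, and after a second quantile normalisation 4 and 2. Over all probe sets 34.4% of the bovine calls were higher, against 57.9% under centring and 47.4% after quantile normalisation. The sign turned for the ITGA5 floor probe set (0.0075 under centring, 0.0011 after quantile normalisation), for an ITGB3 floor probe set (0.0027 under centring, 0.0033 with the covariate) and for ITGA2 (-0.38 with the covariate). Calls over all probe sets fell from 10860 to 6455 under centring, 6798 after quantile normalisation, 6575 without dim probe sets, 5396 with the block, 1601 with the covariate and 4019 with the brightest only, and lay between 7335 and 10858 in leave-outs. Under GW9662 0 integrin probe sets passed in any alternative. Over all probe sets the 44 calls became 67 under centring, 76 without dim probe sets, 26 with a trended and robust prior, 237 with all 15 arrays, 0 with the block, 0 with the covariate and 9 to 62 in leave-outs. Without GW9662 replicate 1, 2, 4 or 5 they were 23, 22, 20 or 17, and without vehicle replicate 2 or 5 they were 18 or 9. Counted once per probe set and alternative, single integrin differences under GW9662 moved by more than the spread in 16 cases. They moved by less in 113 other cases and in 160 cases with an array left out. Between bovine and vehicle arrays, counted in the same way, they kept direction and side of the threshold in 112 cases and 135 leave-out cases. They lost a call with the sign kept in 14 and 21 and gained one in 5 and 4. In 5 further cases a called value turned sign and lost its call, and in 9 an uncalled one moved by more than the spread. Same-numbered arrays correlated between -0.19 and 0.17 in their deviations under GW9662, with 1 of 5 pairs over 0.1, and in no pair best with their own number. In alternatives added after the data were seen, list counts between bovine and vehicle arrays fell furthest with the covariate (8 ligands, 2 adaptors, 1 kinase, 7 regulators and 2 traffic genes). With that covariate 1601 of all 24016 probe sets passed. Apart from what an alternative's own construction explains, the causes were not tested. Signal over background was not used here, and floor values limit ITGB4 and 6 further integrin probe sets.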

Other observations

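The levels of ITGA2 on the 10 ovine arrays were set beside the other named genes after their values had been seen. Of 9154 genes, 5 had a Pearson correlation with ITGA2 above 0.9 over these arrays: PALS1 (0.93), TRMT13 (0.92), PHF20L1 (0.92), VPS29 (0.92), which like VPS35 belongs to retromer, and SRI (0.91). These values are descriptions with no test, and the points share arrays and scaling. GW9662 replicate 3 and vehicle replicate 1, both low in ITGA2, had the highest 3′ minus 5′ difference of their groups. The part of array quality in these correlations was not tested.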
